A study of Mus musculus with 1279 samples.

Results

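Cluster 1 was the smallest of the 5 fibroblast clusters into which the study had divided single cells sorted from the adult mouse heart. It held 70 of the 1279 cells, or 5.47% (95% Wilson interval 4.35% to 6.86%), and the study read it as likely valve interstitial cells. Its members were taken from the cluster label given for each cell. Clusters 2 to 5, the other fibroblast clusters, held 856 cells, and clusters 6 to 8, here treated as 1 mural group (pericytes and vascular smooth muscle), held 353.

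The cells came from male mice aged 10 to 20 weeks and were sequenced 1 cell to a well with Smart-seq2, which reads along the whole transcript and has no molecular identifiers. Mice of 4 strains were used. C57BL6 mice carried no reporter and their cells were sorted with antibodies (to PDGFRα or PDGFRβ, per the methods), whereas PdgfrbGFP, Cspg4dsRED and Acta2GFP mice carried a transgene in which the regulatory sequence of Pdgfrb, Cspg4 or Acta2 drives a fluorescent protein that guided the sort. CD31-positive (endothelial) cells were gated out. Elastase was added to the dissociation for Acta2GFP mice, and cells without Pdgfra or Pdgfrb, or with a clear endothelial or immune signature, had been removed by the study. How many mice stand behind each strain was not used here. The cells of each reporter strain came from 1 plate, so differences between strains cannot be told apart from those of gate and plate, and the 4 strains served as the replicates. With bulk sums of this kind, fewer expressing cells and less RNA per cell cannot be told apart, so the number of cells at 100 CPM is given beside many levels.

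Valve interstitial cells are the fibroblast-like cells inside the heart valve leaflets. They lay down layers of collagen, proteoglycan and elastic fibre that must bend and resist load at each beat, and in development they share regulators and matrix genes with tendon and cartilage. Fibroblasts of the heart muscle lie instead between muscle fibres and next to capillaries.

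Cluster 1 held 19 C57BL6, 22 PdgfrbGFP, 3 Cspg4dsRED and 26 Acta2GFP cells. Its share of all cells sorted was 3.27% (2.10% to 5.05%) in C57BL6, 6.04% (4.02% to 8.98%) in PdgfrbGFP, 1.84% (0.628% to 5.27%) in Cspg4dsRED and 15.2% (10.6% to 21.3%) in Acta2GFP. Between the main C57BL6 plates, of the same strain, it was 4.86% of 329 cells on one and 1.20% on the other. Gate and plate differed between the strains, and so did the dissociation for Acta2GFP, so these shares do not measure how common the cells are in the heart. The part of each in the shares was not tested. The intervals cover counting error only.

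Total gene counts per cell in cluster 1 ran from 54993 to 1049314, with a median of 333384. Summed over the cells of a strain, cluster 1 had 5916599, 8072866, 810367 and 10601869 counts in C57BL6, PdgfrbGFP, Cspg4dsRED and Acta2GFP. Below, several values for 1 gene stand in this order of strains and are CPM of the summed counts (counts of the gene scaled to a total of 1000000). The Cspg4dsRED value rests on 3 cells, and 1 of these had Dcn, a collagen-binding proteoglycan gene of fibroblasts, below 100 CPM and only 1 of the 7 marker genes at 100 CPM or more. The sums could be formed in all 4 strains for clusters 1, 2 and 4, in 3 strains for cluster 3 (no Cspg4dsRED) and in C57BL6 and PdgfrbGFP for cluster 5. The mural sums held mostly cluster 8 cells in C57BL6 and PdgfrbGFP and mostly cluster 7 cells in Cspg4dsRED and Acta2GFP. The part of this mix in the mural values and calls was not tested.

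The study had formed the clusters from these same counts. A difference in expression between them is thus a description of the label and no independent test of it. The edgeR quasi-likelihood test on the summed counts, with Benjamini-Hochberg adjustment over all genes tested, was used to say which differences were steady over strains, and a gene is called different below at an adjusted p under 0.05. All 5 comparisons share the cluster 1 cells. A ± after a log2 fold change is a standard error worked back from the test statistic. A ± after a CPM level is the standard deviation over strains.

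The 7 genes given as markers of cluster 1 (Wif1, Comp, Fmod, Cyp26a1, Dkk3, Lmcd1, Prg4) were high in it in every strain. Together they reached 9470 to 13000 CPM in cluster 1. Clusters 2, 3, 4 and 5 had 65.8 to 200, 737 to 1070, 1040 to 1200 and 155.4 to 204.4 CPM. Of the mural clusters, cluster 6 had 1450 to 3470 CPM, above every strain of clusters 2 to 5. Clusters 7 and 8 had 69.2 to 269.7 and 91.6 to 633 CPM. In single cells, a median of 5 of the 7 stood at 100 CPM or more in cluster 1 and a median of 0 in clusters 2 to 5. Of the 70 cells, 52 (74.3%) had at least 4 of the markers at that level, as did 0.818% of the cells of clusters 2 to 5 and 0.567% of the mural cells. The markers were part of what defined the label, so these values describe it.

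**Figure D1:**
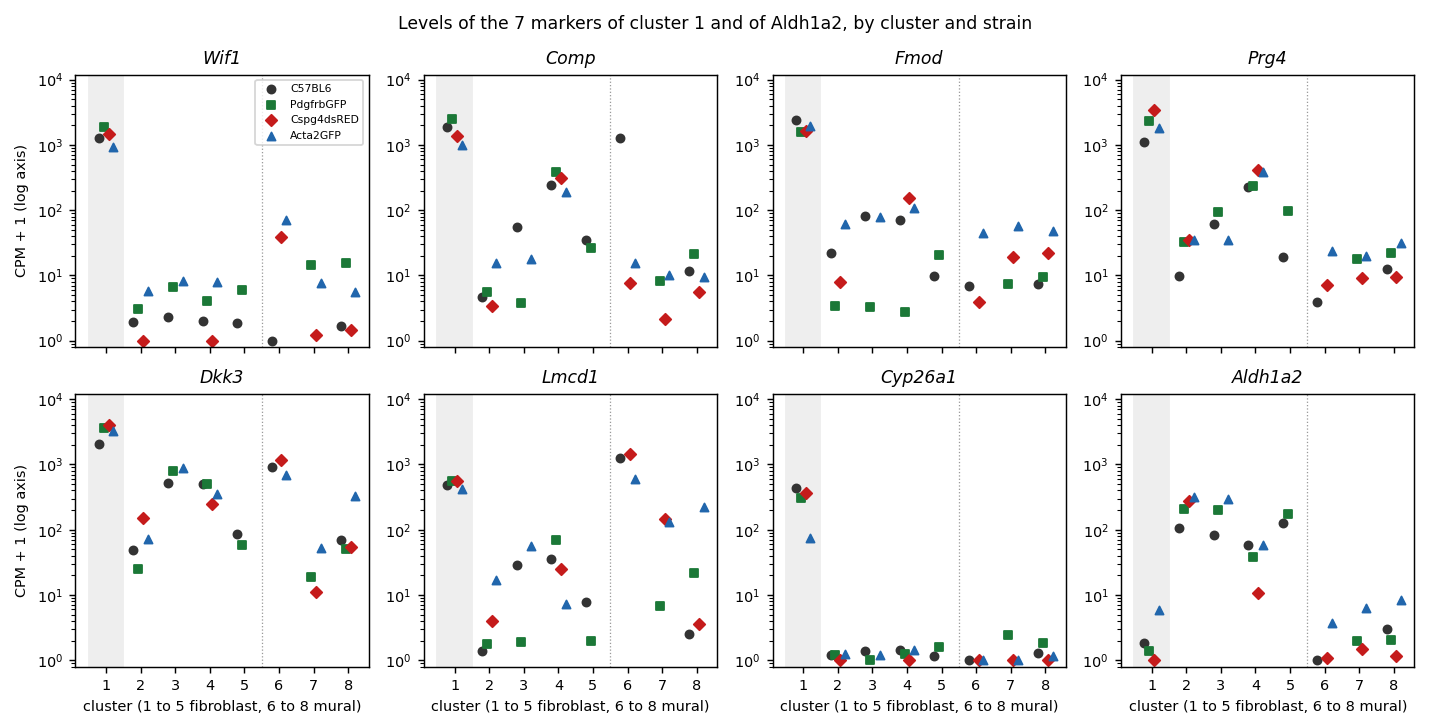
Levels of the 7 markers and of Aldh1a2, as CPM + 1 of the summed counts on a log axis, by cluster on the horizontal axis. Each point is 1 strain, and cluster 1 is shaded. All markers stood above clusters 2 to 5 in cluster 1 in every strain, Lmcd1 reached 599 to 1460 CPM in cluster 6 and so exceeded its cluster 1 level there, and Aldh1a2 was high in clusters 2 to 5 and near 0 in cluster 1.

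Wif1 (Ensembl ENSMUSG00000020218, GRCm38 chr10:121033960-121100650, plus strand), a secreted inhibitor of Wnt signalling, was at 1260, 1880, 1490 and 932 CPM in cluster 1. In clusters 2 to 5 no strain was above 7.15 CPM, so the groups lay far apart. The log2 fold change was 9.32 ± 1.23 (SE) against cluster 2, 8.07 ± 1.35 against cluster 3, 8.88 ± 1.21 against cluster 4, 8.72 ± 1.67 against cluster 5 and 7.13 ± 0.86 against mural cells, and Wif1 was called in all 5. It reached 100 CPM in 47 of the 70 cells and in 0 of 856 cells of clusters 2 to 5, which allows a share of up to 0.350%. At least 1 count of it was nevertheless present in 28.6% of those 856 cells, so a count above 0 does not mark a cluster 1 cell.

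Cyp26a1 (ENSMUSG00000024987, chr19:37697798-37701536, plus strand), the enzyme that breaks down retinoic acid, was at 439, 305, 364 and 74.04 CPM in cluster 1. No strain of clusters 2 to 5 or of the mural sums was above 0.923 CPM, and the Acta2GFP cells had the lowest value of the 4 in cluster 1. Its fold change was 10.50 ± 1.12 against cluster 2 and 9.75 ± 1.08 against cluster 4 on the log2 scale, with 9.95 ± 1.27 against cluster 3, 9.39 ± 1.47 against cluster 5 and 9.81 ± 1.36 against mural cells. It was a minority gene: 17 of 70 cells had 100 CPM or more (6, 4, 1 and 6 by strain) and 25 had any count.

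Aldh1a2 (ENSMUSG00000013584, chr9:71215789-71296243, plus strand), a main enzyme of retinoic acid synthesis, lay on the opposite side. It was at 0.845, 0.372, 0 and 4.81 CPM in cluster 1, at 105.2, 203.8, 275.03 and 320 CPM in cluster 2, at 58.3, 37.1, 9.65 and 57.6 CPM in cluster 4, and at 125.6 and 171.7 CPM in cluster 5. In cluster 3 it was at 81.02, 197.5 and 294 CPM. Every strain of cluster 1 was below every strain of clusters 2 to 5, and no cluster 1 cell reached 100 CPM (0 of 70, which allows up to 4.29%), against 17.8% of cells in clusters 2 to 5. The log2 fold change was -7.06 ± 0.95, -6.95 ± 0.96, -4.57 ± 0.86 and -6.55 ± 0.97 against clusters 2, 3, 4 and 5.

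Of 19 genes of retinoic acid synthesis, binding and breakdown, 17 were tested against the fibroblast clusters. Cyp26a1 was the 1 called higher and Aldh1a2 the 1 called lower in each of the 4 comparisons, and the other 15 were not called. Over all genes tested, 0.0749% to 0.496% were called higher and 0.288% to 0.743% lower in these comparisons. The median log2 fold change of the list ran from 0.20 (cluster 4) to 1.02 (cluster 2), against -0.09 and -0.07 over all genes tested. Aldh1a3, a second synthesis enzyme, was at 91.8, 85.8, 0 and 169.1 CPM, above cluster 2 (0.552 to 7.50 CPM) in 3 of 4 strains and overlapping cluster 3 (37.8 to 205.4 CPM), and was called against mural cells alone (6.17 ± 1.39, and 5.43 with edgeR adjusted p = 0.24 with the strain block). Adh1, an alcohol dehydrogenase that acts on retinol and was not on the list, was at 0.886 ± 0.778 CPM in cluster 1 and called lower than clusters 2, 3 and 5.

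The sequence just before the Cyp26a1 start is shown because it holds a direct repeat of the kind that retinoic acid receptors are known to bind, and Cyp26a1 is a classic retinoic acid-responsive gene. The stretch covers chr19:37697558-37697797 of GRCm38.p6 (RefSeq window, plus strand, 5′ to 3′), and capitals mark the repeated letters.
Cyp26a1: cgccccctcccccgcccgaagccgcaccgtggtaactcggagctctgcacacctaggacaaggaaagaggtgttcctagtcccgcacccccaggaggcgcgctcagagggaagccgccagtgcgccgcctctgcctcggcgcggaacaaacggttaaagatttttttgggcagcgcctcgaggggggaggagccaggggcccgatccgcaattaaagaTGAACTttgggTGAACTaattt
The motif searched on both strands was AGTTCA followed, after 5 free bases, by AGTTCA again, which reads TGAACT on the other strand. Among 32851 RefSeq promoter windows of 300 bases, 8 windows (0.0244%), each of a different gene, held it. The match in Cyp26a1 begins 32 bases before the RefSeq start. The windows of Wif1, Prelp, Fmod and Aldh1a2 held no match, and the match is a description of the letters, not a measurement of binding.

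Against cluster 2, 1.24% of the 17355 genes tested were called, 0.496% (86 genes) higher and 0.743% lower in cluster 1. Against cluster 3 it was 0.403% (70 genes), with 0.115% higher and 0.288% lower. Against cluster 4 it was 0.57% (99 genes), with 0.184% higher and 0.386% lower, and 0.882% with strain as a block (0.288% higher and 0.593% lower). Against cluster 5 it was 0.513% (89 genes), with 0.0749% higher and 0.438% lower, and 0.133% higher with the block. Against the mural cells 382 of 12575 genes (3.04%) were called, 1.3% higher and 1.74% lower, and 1.09% lower with the block. When only the clusters compared and only strains holding both entered the fit, 0.81%, 0.162%, 0.397% and 0.0513% of the genes tested were higher and 0.851%, 0.0936%, 0.365% and 0.044% lower against clusters 2, 3, 4 and 5, with fewer samples in each fit. With the block, those fits gave 10 higher and 17 lower against cluster 3 and 13 higher and 9 lower against cluster 5. DESeq2's Wald test called 2.92%, 2.58%, 1.38% and 1.71% of the genes higher and 2.73%, 2.34%, 1.96% and 1.35% lower against clusters 2, 3, 4 and 5. The balance of higher against lower calls thus depended on the fit. Without the C57BL6 strain the fit over all 5 fibroblast clusters called 55, 14, 26 and 16 genes against clusters 2 to 5, and 0.919% of genes were called against mural cells. Of the calls of the 74 genes named here that had one, 34.7% held without any 1 strain in the fit over all fibroblast clusters or that against mural cells. The 11 genes whose every call did were Dpep1, Nid1, Dkk3, 6030408B16Rik, Cxcl14, Scara5, Col1a1, Dcn, Vcan, Frzb and Gcnt2, and each of the others lost at least 1 call without at least 1 strain. Of the 11, Dkk3 and Scara5 (against cluster 5) and 6030408B16Rik (against cluster 3) lost a call in the fits of only the strains holding both clusters.

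In the fit without a block, 4 genes met the rule of being called higher in all 5 comparisons, higher in every strain and present in at least 30% of cluster 1 cells: Cyp26a1, Wif1, Prg4 and Prelp. Genes called higher in all 5 numbered 4 in this fit, 7 with the strain block, 7 with DESeq2 size factors, 10 without a filter, 12 with thinned cells and 33 by DESeq2's Wald test, and these 4 were among them each time. In the fits of only the strains holding both clusters, Wif1, Prg4 and Prelp were not called against cluster 5 (9.06, 4.89 and 1.80). Prg4 (ENSMUSG00000006014, chr1:150449412-150466165, minus strand), which encodes lubricin, the boundary lubricant of joints and tendons, was at 1120, 2300, 3490 and 1810 CPM in cluster 1. Its next highest level was in cluster 4, at 229.03, 237.4, 407 and 385 CPM, and every strain of cluster 1 was above these. The log2 fold change was 2.69 ± 0.52 there and 4.89 to 7.09 in the other 4 comparisons. Prelp (ENSMUSG00000041577, chr1:133910304-133921414, minus strand), a proteoglycan that anchors basement membranes to the collagen around them, was a gene of all fibroblasts, at 524 to 2280 CPM in clusters 2 to 5, and stood at 3890, 4420, 5140 and 4380 CPM in cluster 1. It had the smallest changes of the 4 and the smallest errors, from 1.04 ± 0.17 against cluster 2 to 2.75 ± 0.20 against cluster 3. Prg4 overlaps Tpr and Prelp overlaps Gm15851 on the opposite strand, and whether the counting used strand is not stated, so reads of each pair cannot be told apart. Without C57BL6, Prg4 alone was still called in all 5 comparisons, as Cyp26a1, Wif1 and Prelp then missed the threshold in 2, 2 and 3 of them with fold changes of the same sign. The Prg4 call against cluster 4 was lost without Cspg4dsRED or without Acta2GFP, and without PdgfrbGFP those of Wif1 against clusters 3 and 5 and of Cyp26a1 against cluster 5 were lost.

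**Figure D2:**
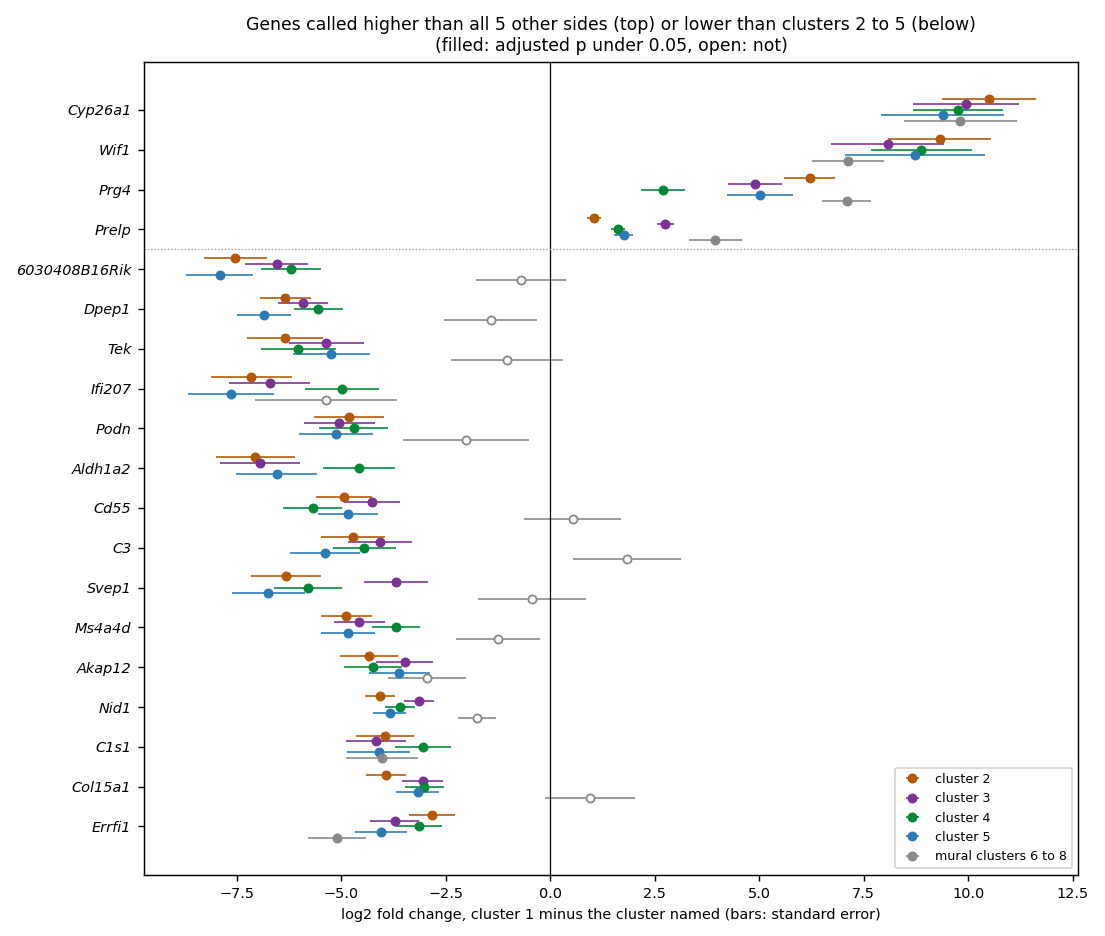
Log2 fold change of cluster 1 against each other side, with standard errors, for the 4 genes higher in all 5 comparisons and, of 19 that qualified, the 15 lower than clusters 2 to 5 by the largest margins. Filled points passed an adjusted p of 0.05 and open points did not. Against mural cells, 2 of the 15 lower genes (C1s1 and Errfi1) were also called lower, and Aldh1a2 was not tested.

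The calls of the 15 lower genes depended on the fit. With strain as a block 12 of the 15 were still called lower in all 4 comparisons, and without C57BL6, PdgfrbGFP, Cspg4dsRED or Acta2GFP it was 4, 8, 14 and 7. With only the 2 clusters compared in each fit just Dpep1 and Nid1 were, and in the strains holding both clusters Ms4a4d as well. The 3 that the block lost were C3 against cluster 3 (-4.00, edgeR adjusted p = 0.068), C1s1 against cluster 4 (-3.38, edgeR adjusted p = 0.053) and Akap12 against cluster 5 (-3.56, edgeR adjusted p = 0.0568). Where a gene is said below to be lower in all 4, this is by the fit over clusters 1 to 5 without a block.

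Among the other markers, Comp, cartilage oligomeric matrix protein, was at 1850, 2470, 1380 and 981 CPM in cluster 1. In cluster 4 it was at 243.6, 388, 306 and 191.9 CPM, lower in every strain, but the fold change there (2.52 ± 0.63) was not called, while those against clusters 2, 3 and 5 (7.98 ± 0.81, 5.97 ± 0.84 and 5.70 ± 1.00) were. Dkk3, a secreted glycoprotein related to Wnt inhibitors, was the most widespread marker, at 100 CPM or more in 67 of 70 cells. Its level of 2040, 3640, 4060 and 3290 CPM was called higher than clusters 2, 4 and 5 but not cluster 3 (1.95 ± 0.45), where it was at 513 to 882 CPM, and its call against cluster 5 was lost in the fit of the strains holding both (5.3). Fmod, the collagen-binding proteoglycan fibromodulin, was at 2420, 1560, 1620 and 1960 CPM and was called against cluster 2 (6.31 ± 1.18) and mural cells (6.54 ± 0.72). Lmcd1, a LIM domain protein, was at 500 ± 63.5 CPM in cluster 1 and at 19.2 to 519 CPM in mural cells, from which it was not called different. Both Fmod and Lmcd1 were above clusters 3, 4 and 5 in every strain, without being called.

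The study also names Thbs1 and Cyp2e1 for these cells. Thbs1, a matrix protein that activates latent TGF-β, was at 1210, 622, 2700 and 1950 CPM in cluster 1 and called higher than cluster 2 (3.16 ± 0.76) and cluster 3 (4.55 ± 0.91). Both calls were lost without C57BL6, Cspg4dsRED or Acta2GFP, and that against cluster 3 also in the fit of the strains holding both clusters. Cyp2e1, a cytochrome that oxidises small molecules such as ethanol, was at 789, 434, 2.47 and 478 CPM. Its Cspg4dsRED value was near that of the other clusters and none of the 3 cells of that strain reached 100 CPM. It was called higher than cluster 2 (7.03 ± 1.38), cluster 4 (7.49 ± 1.41) and mural cells (7.68 ± 1.29). Its calls against clusters 2 and 4 were lost without C57BL6, PdgfrbGFP or Acta2GFP, and that against mural cells without C57BL6 or PdgfrbGFP.

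Some genes of tendon and cartilage were called higher, and most were not called. Of 31 on the list, chosen with earlier results of these data known, 27 were tested against the fibroblast clusters, and 7, 3, 4 and 2 were called higher against clusters 2, 3, 4 and 5, with 1, 1, 1 and 0 called lower. Over all genes, 0.496%, 0.115%, 0.184% and 0.0749% were called higher. The list holds the markers Comp and Prg4, which are 2 of the 7 and 2 of the 3 called higher against clusters 2 and 3, 1 of the 4 (Prg4) against cluster 4 and both of those against cluster 5, so that those counts partly restate the label. The median log2 fold change of the list was 6.21, 4.77, 2.63 and 5.70, against medians over all genes tested from -0.09 to 0.05. Genes near 0 in clusters 2 to 5 could pass the filter on low counts through cluster 1 alone, which by itself gives large positive values. These medians, which also hold Comp and Prg4, thus describe the list and are no test of it. The filter bears on the medians of the other lists in the same way. Scx (scleraxis), the transcription factor of tendon cells, was at 190, 118.8, 182.6 and 102.8 CPM in cluster 1 and at no more than 4.26 CPM in any strain of clusters 2 to 5. It was called against clusters 2 and 4 (9.29 ± 1.59 and 6.38 ± 1.39), and 20 of 70 cells had 100 CPM or more. Chad (chondroadherin), a cartilage protein that binds collagen and integrins, was at 835, 954, 1420 and 296 CPM and called against the same clusters and mural cells. Cilp2, a cartilage intermediate layer protein, was at 273.6, 27, 120.9 and 55.1 CPM, and no cell of the other clusters reached 100 CPM.

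Other members followed only some of the comparisons. Cilp, a relative of Cilp2, was as high in cluster 4 (692 to 1500 CPM) as in cluster 1 (919 to 1170 CPM) and was called higher only against cluster 3 (4.48 ± 0.69) and mural cells. Thbs4, a thrombospondin of tendon, was at 619, 168.96, 1660 and 664 CPM and called against cluster 2 (4.96 ± 1.19, and 5.5 with edgeR adjusted p = 0.058 with the strain block) and mural cells (6.46 ± 1.15). Matn2, a matrilin that links matrix fibres, was the member called lower (against clusters 2, 3 and 4), at 238.8 ± 73.6 CPM in cluster 1 against 357 to 790 CPM in the strains of clusters 2 to 4. Its calls against clusters 3 and 4 were lost whichever strain was left out, and that against cluster 2 without C57BL6, PdgfrbGFP or Acta2GFP. Sox9, a regulator of cartilage and of developing valves, was not called against any fibroblast cluster (0.55 to 1.37) and was 4.90 ± 0.99 above mural cells. Among 25 valve development transcription factors tested, Scx was the 1 called against clusters 2 and 4 (beside 0.496% and 0.184% of all genes called higher), and none was called against clusters 3 and 5 at this depth. At an unadjusted p under 0.05, 1541 to 2251 of the 17355 genes passed in the 4 comparisons.

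**Figure D3:**
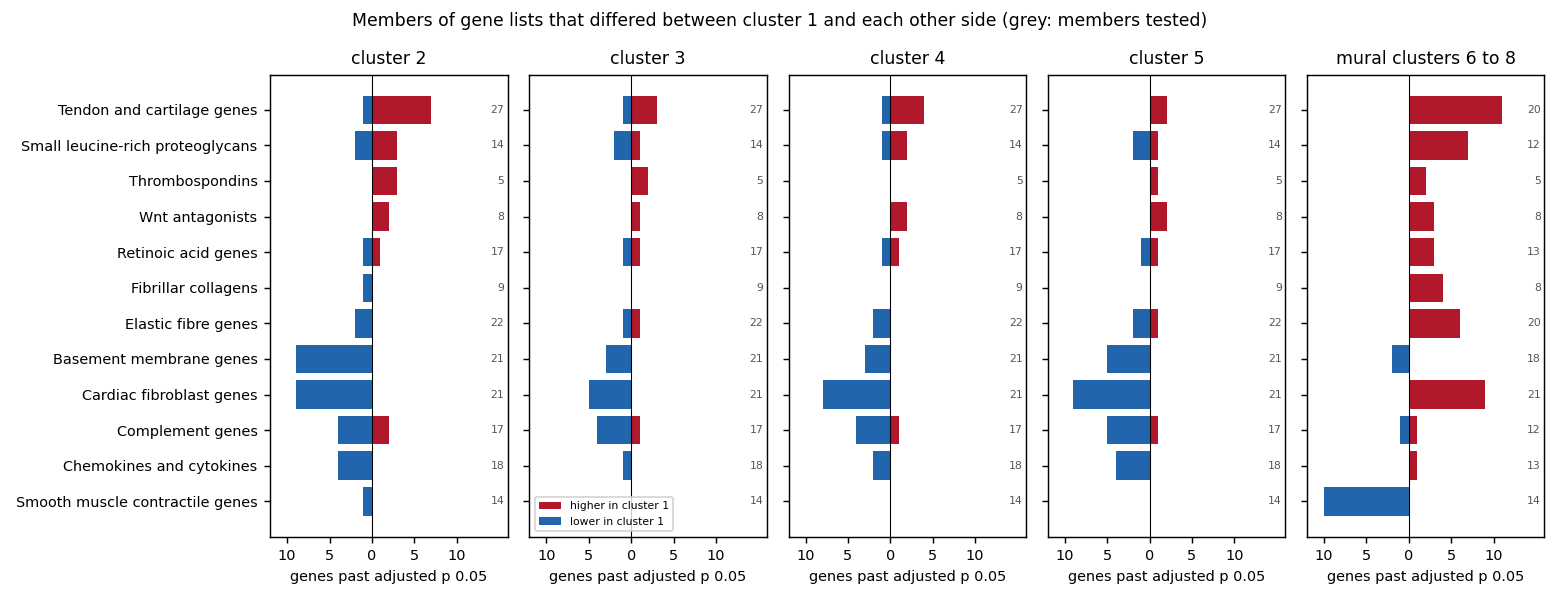
Number of genes of 12 lists called higher (red, to the right) or lower (blue, to the left) in cluster 1 against each other side, with the number of members tested in grey. Tendon and cartilage genes had more members called higher than lower in all 5 panels, while basement membrane genes and cardiac fibroblast genes stood on the lower side against clusters 2 to 5.

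The general collagens of fibroblasts were at similar levels in cluster 1 and the other fibroblasts. Col1a1, the main type I collagen chain, was at 2390 ± 713 CPM and differed from clusters 2 to 5 by -0.05 to 0.04 on the log2 scale with errors of 0.23 to 0.28. Of 9 fibrillar collagen genes tested, 1 (Col5a3) was called lower against cluster 2, beside 0.743% of all genes, and 0 against clusters 3, 4 and 5, whereas 4 of 8 were called higher against mural cells, beside 1.3% of all genes. Dcn was at 5560 ± 573 CPM in cluster 1, 3.06 ± 0.46 above mural cells. Of 14 small leucine-rich proteoglycans tested, 3, 1, 2 and 1 were called higher against clusters 2, 3, 4 and 5. In the same order 2, 2, 1 and 2 were called lower. Over all genes, 0.496%, 0.115%, 0.184% and 0.0749% were higher and 0.743%, 0.288%, 0.386% and 0.438% lower. Against mural cells 7 of 12 were higher, beside 1.3% of all genes. Fmod and Chad were called higher against cluster 2, and Chad against cluster 4. Prelp was higher in all 4 fibroblast comparisons. Podn (podocan) was lower in all 4, at 17.4, 1.24, 0 and 29.2 CPM against 155.4 to 505 CPM in clusters 2 to 5. Ogn (osteoglycin) was at 328 ± 103.4 CPM and called lower than clusters 2, 3 and 5.

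Most elastic fibre genes were not called. Of 22 tested, 0, 1, 0 and 1 were called higher and 2, 1, 2 and 2 lower against clusters 2, 3, 4 and 5, beside 0.496%, 0.115%, 0.184% and 0.0749% of all genes higher and 0.743%, 0.288%, 0.386% and 0.438% lower. Emilin2, an elastin-associated glycoprotein, was at 0.876 ± 0.948 CPM in cluster 1 and was called lower in all 4 fibroblast comparisons, most strongly against cluster 4 (-7.47 ± 1.17), where it was at 120, 201.2, 133.2 and 252.4 CPM. With the strain block its call against cluster 3 was lost (-5.10, edgeR adjusted p = 0.0786), as it was whichever strain was left out. Fbln2 (fibulin 2) was at 263.8, 446, 626 and 398 CPM, below clusters 2, 4 and 5 (1120 to 2360 CPM) and overlapping cluster 3 (247.9 to 401 CPM). Ltbp2, which binds fibrillin microfibrils, was at 512, 259.3, 526 and 308 CPM and called higher than cluster 3 (6.72 ± 1.13) and cluster 5 (6.40 ± 1.34).

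Basement membrane genes had members called lower, and none higher, against every fibroblast cluster. Basement membranes are the thin laminin and type IV collagen sheets next to which many interstitial fibroblasts lie. Of 21 tested, 9, 3, 3 and 5 were called lower against clusters 2, 3, 4 and 5 and 0 higher, and the median of the list was -3.06, -1.54, -2.30 and -2.49 on the log2 scale, against -0.07, 0.05, -0.09 and -0.03 over all genes tested. Over all genes, 0.743%, 0.288%, 0.386% and 0.438% were called lower. Nid1 (nidogen 1), which links laminin to collagen IV, was at 65.7, 70.1, 45.7 and 122.4 CPM in cluster 1 and at 463 to 1510 CPM over the strains of clusters 2 to 5, with no overlap, and its calls against clusters 2 to 5 held without any 1 strain. Its fold change was -4.07 ± 0.36, -3.15 ± 0.36, -3.60 ± 0.35 and -3.85 ± 0.39. Lamc1, the laminin γ1 chain, was at 69.1, 12.3, 97.5 and 157.1 CPM, below all strains of clusters 2 to 5 (258.2 to 1110 CPM). Col15a1, a collagen of the zone beneath the basement membrane, was at 22.96 ± 10.2 CPM and called lower in all 4, with log2 fold changes of -3.93 to -3.02. Col4a1 and Col4a2, the main collagen IV chains, were called lower than cluster 2 and mural cells, and Col4a2 also lower than cluster 5. The Col4a2 call against cluster 5 was lost whichever strain was left out. Col4a1 and Col4a2 lie head to head and share bases at their starts.

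Genes known from fibroblasts of the heart muscle were likewise called lower or not called. Of 21 tested, 9, 5, 8 and 9 were called lower against clusters 2, 3, 4 and 5, beside the same 0.743%, 0.288%, 0.386% and 0.438% of all genes, and 0 higher. Their medians were -2.14, -2.0, -1.83 and -2.16. Against mural cells 9 were higher, beside 1.3% of all genes. Dpep1, a membrane dipeptidase, was at 44.5, 19.7, 1.23 and 45.7 CPM in cluster 1. It was at 1890 to 2530 CPM in cluster 2, 1210 to 2140 CPM in cluster 3, 1050 to 1440 CPM in cluster 4 and 3000 to 3100 CPM in cluster 5, so the levels did not overlap, and 4 of 70 cluster 1 cells but 88.9% of the cells of clusters 2 to 5 reached 100 CPM. At least 1 count of Dpep1 was present in 67 of the 70 cells. Its 4 calls held without any 1 strain. Pdgfra, the receptor widely used to mark fibroblasts and 1 of the sort antigens, was lower but present, at 194.9, 130, 82.7 and 112.3 CPM against 385 to 702 CPM in clusters 2 to 5. The fold changes of Pdgfra were -2.14 ± 0.32, -2.03 ± 0.33, -2.13 ± 0.32 and -1.89 ± 0.36, and it was 4.02 ± 0.66 above mural cells. Its calls were less firm, since those against clusters 3 and 5 were lost without C57BL6, PdgfrbGFP or Acta2GFP, that against cluster 4 without Acta2GFP, and that against mural cells without C57BL6 or PdgfrbGFP. Ms4a4d was at 22.4 ± 19.9 CPM and called lower in all 4. Scara5, a ferritin receptor, was at 3.33 ± 2.93 CPM and called lower than clusters 2, 4 and 5. Pi16 was called lower than cluster 4 alone (-2.63 ± 0.49), in which it reached 1940 to 2780 CPM.

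**Figure D4:**
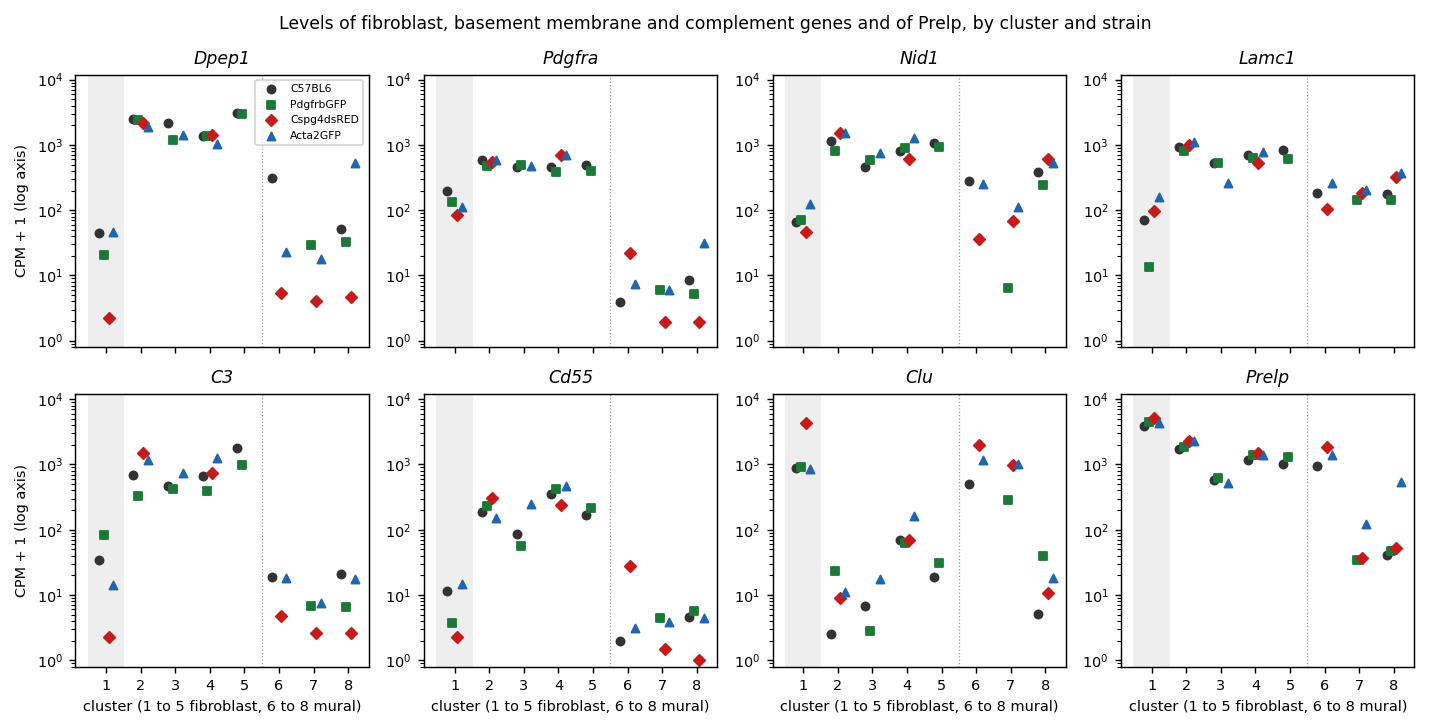
Levels of Dpep1, Pdgfra, Nid1, Lamc1, C3, Cd55, Clu and Prelp, as CPM + 1 of the summed counts on a log axis, by cluster, with 1 point a strain and cluster 1 shaded. The first 6 were lower in cluster 1 than in every strain of clusters 2 to 5, and Clu and Prelp were higher.

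Complement genes, which make up the blood-borne and local cascade that tags cells for clearance, went both ways. C3, the central component, was at 33.8, 81.9, 1.23 and 13.02 CPM in cluster 1 and at 333 to 1780 CPM in clusters 2 to 5. C1s1, a protease of the first complex, was at 100, 31.3, 1.23 and 17.3 CPM against 215.1 to 798 CPM, and Cd55, which shields cells from complement, was at 10.6, 2.73, 1.23 and 13.6 CPM against 55.5 to 462 CPM. None of the 3 overlapped the other fibroblasts, and each was called lower in all 4 comparisons. Clu (clusterin), a secreted chaperone that binds the terminal complex, was higher in all 4 (4.08 ± 0.76 to 7.41 ± 1.01), at 896, 908, 4260 and 842 CPM against 1.53 to 160 CPM. It was not called against mural cells (1.72 ± 0.80), and its call against cluster 4 was lost without Cspg4dsRED (3.21) or C57BL6 (4.15), and that against cluster 5 without C57BL6 (5.66) or PdgfrbGFP (6.54). Of 17 complement genes tested, 2, 1, 1 and 1 were higher and 4, 4, 4 and 5 lower, beside 0.496%, 0.115%, 0.184% and 0.0749% of all genes higher and 0.743%, 0.288%, 0.386% and 0.438% lower. One of the 5, C7, a part of the terminal complex, was not called against cluster 5 with the strain block (-2.93, edgeR adjusted p = 0.096).

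Chemokine genes were lower or not called. Cxcl14 was at 7.10, 3.22, 7.40 and 6.41 CPM in cluster 1 and called lower than clusters 2, 4 and 5 (-6.85 ± 0.80, -4.97 ± 0.74 and -7.20 ± 0.84), while cluster 3, at 5.55 to 31.2 CPM, was near it. Ccl11 (eotaxin) was called lower than clusters 2 and 5 (with the strain block -6.40 against cluster 5, edgeR adjusted p = 0.0568), and Ccl7 lower than clusters 2, 4 and 5. Cxcl1 was at 14.9, 133.4, 0 and 16.4 CPM against 164.9 to 1780 CPM and called lower than clusters 2, 3 and 5. Of 18 chemokine and cytokine genes tested, 4, 1, 2 and 4 were lower, beside 0.743%, 0.288%, 0.386% and 0.438% of all genes, and 0 higher. The immediate early gene Jun, which rises when tissue is dissociated, was at 758, 921, 759 and 462 CPM in cluster 1 against 903 to 2520 CPM, and called lower than clusters 2 and 5. It was the 1 member called of 22 immediate early and stress genes tested, whose medians were -0.49, -1.25, -0.38 and -1.53 against clusters 2, 3, 4 and 5, with 4, 5, 5 and 2 members above 0. Their part in the chemokine levels was not tested.

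Further genes were named by the size of their change. Ifi207 was at 1.69, 0.991, 0 and 0.283 CPM in cluster 1 and 11.1 to 167.3 CPM in clusters 2 to 5, and its relative Ifi211 was at 0.128 ± 0.106 CPM, 8.59 ± 1.12 below cluster 2 and 8.31 ± 1.15 below cluster 5 on the log2 scale. The gene 6030408B16Rik was at 0.826 ± 0.557 CPM against 22.9 to 228.7 CPM. Tek, the angiopoietin receptor best known from endothelium, was at 3.21, 0.619, 0 and 4.53 CPM in cluster 1 but at 13.4 to 286.5 CPM in clusters 2 to 5. Svep1, a large adhesion protein, was at 4.90, 0.991, 0 and 6.23 CPM against 7.86 to 413 CPM, and its call against cluster 3 was lost whichever strain was left out. Akap12 (a kinase scaffold) and Errfi1 (a feedback inhibitor of the EGF receptor) were called lower in all 4, with log2 fold changes of -4.34 to -2.84. Ret, a receptor tyrosine kinase, was called lower than clusters 2, 4 and 5 but was near 0 in cluster 3 as well (0 to 2.06 CPM). Hmcn2, a basement membrane-associated protein, was called lower than clusters 2, 4 and 5, and so was Adamts5, a versican- and aggrecan-cleaving protease.

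On the higher side, the same rule named Shisa2, Rspo3, Cd109, Cadm1, Uts2r and Spp1. Cadm1, a cell adhesion molecule, was at 72.5, 361, 534 and 298 CPM in cluster 1, at no more than 0.438 CPM in cluster 5 and no more than 16.5 CPM in the other fibroblasts, and 34 of 70 cells reached 100 CPM. It was called against clusters 2, 4 and 5 and mural cells. Shisa2 (150, 330, 114.8 and 67.9 CPM) was called against cluster 2 alone (10.02 ± 1.82). Rspo3, a secreted amplifier of Wnt signalling, was at 162.3, 35.2, 103.7 and 110.8 CPM and called against clusters 2 and 4 (9.71 ± 1.68 and 9.28 ± 1.64). Uts2r, the urotensin receptor, was at 81.6, 116.6, 162.9 and 122.7 CPM and at no more than 1.10 CPM in clusters 2 to 5, and was called against clusters 2 and 4 and mural cells. Cd109 was at 14.2, 35.6, 552 and 127.9 CPM, an uneven level that was called against clusters 2 and 3.

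Spp1 (osteopontin), a matrix protein of mineralising tissue, was at 313, 32.1, 1520 and 247.03 CPM and at 100 CPM or more in 12 of 70 cells. It was called against cluster 2 (8.09 ± 1.92) and mural cells (8.87 ± 1.33). Postn (periostin), a matrix protein of valves and of injured tissue, was at 1120, 1390, 1250 and 3060 CPM, above cluster 2 (3.18 ± 0.75) but not called against clusters 3, 4 and 5 or mural cells. Of 14 mineralisation genes tested, these were the 2 called higher against cluster 2, beside 0.496% of all genes, and none was called against clusters 3 to 5.

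Inhibitors of Wnt signalling were represented by Wif1 and Dkk3. Of 8 tested, 2, 1, 2 and 2 were called higher against clusters 2, 3, 4 and 5, and 3 against mural cells, the third being Frzb (917 ± 421 CPM, 6.18 ± 0.78). Over all genes, 0.496%, 0.115%, 0.184% and 0.0749% were higher against the fibroblast clusters and 1.3% against mural cells. Both Wif1 and Dkk3 are among the 7 markers and were the only members called against the fibroblast clusters, so the count restates the label there. Of 17 Wnt ligand and target genes tested against the fibroblast clusters, 0 were called, at medians of 1.95 to 3.42.

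Fibroblast genes were higher and contractile genes lower in cluster 1 than in mural cells. The 5 fibroblast markers (Pdgfra, Col1a1, Dcn, Lum, Dpt) summed to 10600 to 12800 CPM in cluster 1, within 9810 to 13300 CPM for clusters 2 to 5. All 5 were called higher than in mural cells, beside 1.3% of all genes. Of 14 smooth muscle contractile genes 10 were called lower than in mural cells, beside 1.74% of all genes (1.09% with the strain block). Myh11, the smooth muscle myosin, was at 0.507, 0.743, 13.6 and 35.7 CPM against 204.8 to 3150 CPM (-7.00 ± 1.43). Acta2 was at 193.5, 283.7, 200 and 753 CPM against 841 to 5370 CPM (-3.01 ± 0.66), and Rgs5, a pericyte gene, at 94.3, 91.05, 155.5 and 595 CPM against 2550 to 9420 CPM (-4.66 ± 0.75). Rgs5 and Acta2 were highest in Acta2GFP cells, where 15 and 26 of the 26 cells reached 100 CPM. Pdgfrb was lower than in mural cells (-2.59 ± 0.54) and differed from the other fibroblasts by -0.20 to 0.35 without a call. Vcan (versican), a large proteoglycan of the valve's spongy layer, was 5.74 ± 0.73 above mural cells and was not called against the other fibroblasts. Tbx20, a cardiac transcription factor, was 3.09 ± 0.75 above mural cells. The calls of Tbx20 and Acta2 against mural cells were lost whichever strain was left out. By the naming rule, the genes with a symbol furthest below mural cells were Trac (-8.78 ± 1.22), annotated as a T-cell receptor constant segment, and Gcnt2 (-8.45 ± 0.89), a glycan-branching enzyme. The T-cell gene Cd3e had no count in cluster 1 or in clusters 6 to 8. The third gene named there had an identifier with no name in the annotation used.

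Markers of other cell types were summed in each strain of cluster 1. The 7 endothelial markers summed to 27.5 to 175.7 CPM over strains, with Pecam1 taking most of the highest value (175.03 CPM in PdgfrbGFP), the 5 immune markers to 0 to 7.27 CPM, the 9 cardiomyocyte markers to 39.1 to 270 CPM (mean 161.04 CPM, against means of 30.2 to 82.4 CPM in clusters 2 to 5), the 3 Schwann cell markers to 0.0943 to 4.94 CPM and the 4 melanocyte markers to 0 to 11.1 CPM. The 3 endocardial markers summed to 31.7 to 492 CPM, against 0.463 to 199.01 CPM in clusters 2 to 5, with Npr3 at or near 0. All 4 mesothelial and all 3 adipocyte markers were at 0. Mural markers summed to 356 to 1030 CPM, highest in Acta2GFP, against 180 to 618 CPM in clusters 2 to 5. The part of such transcripts in the results was not tested.

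The cells of cluster 1 were not uniform. Of the 70, 60 had 3 or more of the 7 markers at 100 CPM or more, and 10 had 1 or 2 of them (4, 2, 1 and 3 by strain). These 10 lacked Wif1, Comp, Prg4 and Cyp26a1 at that level, but 9 had Dkk3 and 8 had Prelp, and none had Dpep1 or Aldh1a2. Their median depth was 274609 gene counts against 336968 in the other 60, and at equal depth they had a median of 2648 genes against 3321. The split was chosen after the values were seen, and uses the markers of the label.

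**Figure D5:**
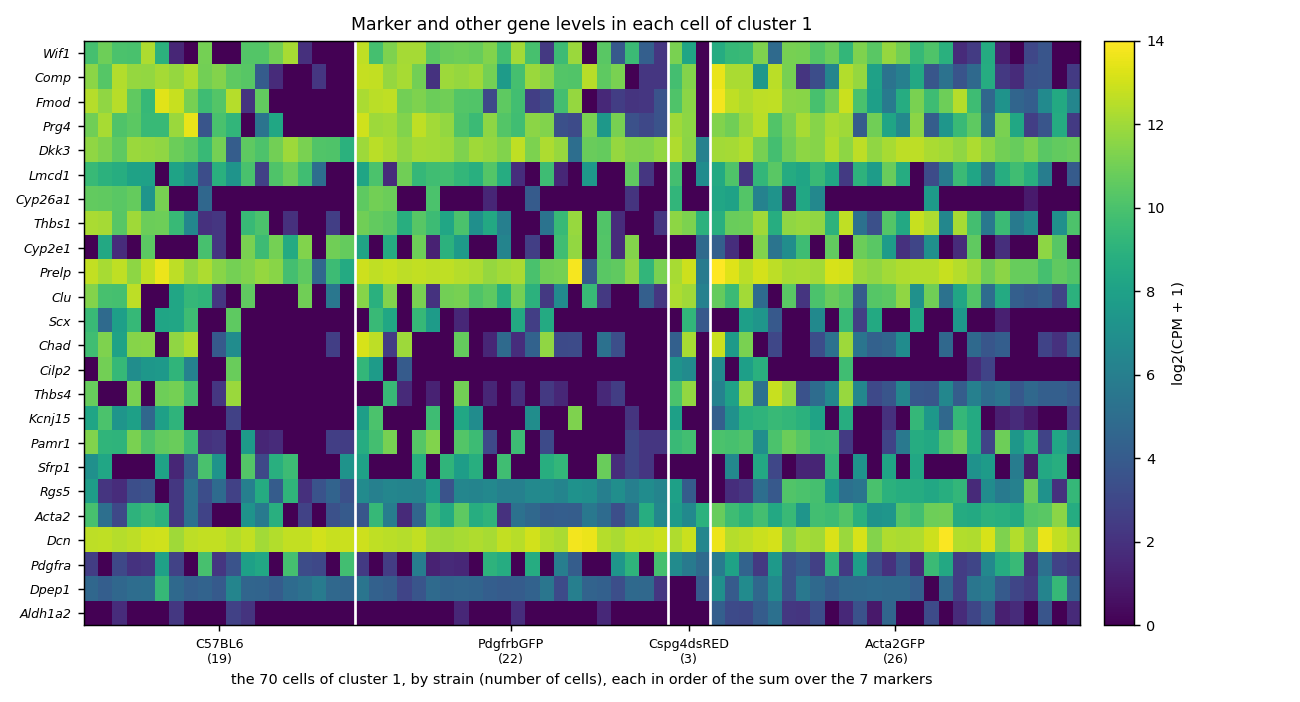
Level of 24 genes, as log2(CPM + 1) in colour, in each of the 70 cells of cluster 1. Cells stand in columns by strain (19 C57BL6, 22 PdgfrbGFP, 3 Cspg4dsRED, 26 Acta2GFP), ordered within a strain by the sum over the 7 markers. Dcn, Prelp and Dkk3 were present in nearly all cells, Cyp26a1, Scx, Chad and Cilp2 in a subset with high markers, and Cyp2e1 in cells all along the order. Cyp26a1 is 1 of the 7 markers summed and Cyp2e1 is not, so the place of Cyp26a1 in the order is partly built in.

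Cells with Cyp26a1 were a subset of those with Fmod, Thbs1 and Dkk3. All 17 cells with Cyp26a1 at 100 CPM or more also had these at that level, 16 had Wif1, 16 had Prg4 and 14 had Comp. Chad was at that level in 10 of the 17 and in 9 further cells. Scx was shared by 8 of the 17, and all 20 cells with Scx had Prg4. Cyp2e1, by contrast, was at 100 CPM in 6 of the 17 Cyp26a1 cells and in 24 further cells, and only 4 of 70 cells had both Cyp2e1 and Scx, or both Cyp2e1 and Chad. These are counts of cells of the same strains and plates, given without a test.

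Among 3085 genes at 100 CPM or more in 20% to 80% of the cluster 1 cells, those most like Cyp26a1 over the cells of a strain were Gm29233, Kcnj15, Pamr1, Rasl11b, Vma21 and Fmod. For Kcnj15, a potassium channel, Pearson's r of log2(CPM + 1) was 0.804, 0.488 and 0.547 in the 19 C57BL6, 22 PdgfrbGFP and 26 Acta2GFP cells, and for Pamr1, a secreted protease-like protein, it was 0.703, 0.569 and 0.433. Gm29233 overlaps Thbs1 on the opposite strand, so their reads cannot be told apart. No gene followed Cyp2e1 as closely in all 3 strains, the nearest by mean being Nme7 (0.725, 0.497 and 0.235) and Sfrp1, a Wnt inhibitor (0.286, 0.470 and 0.489). The cells share their plate and depth within a strain, and each list holds the highest of 3085 values.

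Spike-in share and the number of genes detected, which no marker rule used, were compared over strains. The share of counts from the added ERCC spike-in RNA, which is lower in cells that yield more RNA, had a median of 1.81%, 1.66%, 1.46% and 0.826% in cluster 1 and of 1.85%, 1.98%, 1.20% and 0.939% in clusters 2 to 5 pooled. The mean difference over strains was -0.0533 percentage points (exact permutation test, two-sided, p = 0.857, n = 4 strains a side, smallest possible p = 0.0286). Its sign turned with means over cells (0.148) and without PdgfrbGFP (0.0357). Genes detected in each cell after thinning to 50000 gene counts had medians of 2833, 2276, 4545 and 4180 in cluster 1 and of 2719, 2111, 3744 and 4065.5 in clusters 2 to 5. They were higher in cluster 1 in 4 of 4 strains, by 299 genes on average (159.9 without thinning, and 131.2 without Cspg4dsRED). Strains differed far more than that (exact permutation p = 0.6). Paired by strain, the exact sign-flip p was 0.125, the smallest that 4 pairs can give. Differences of these sizes were thus not detectable with 4 strains.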

How the data were processed

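Raw counts per gene of 1279 heart cells were deposited by the authors, who per their methods trimmed reads, mapped them to GRCm38 (mm10) with TopHat2 and counted with featureCounts. The annotation release and strand setting are not given in the sources used here. The submitters' processing notes name bcl2fastq, Bowtie, Bowtie2, featureCounts and Subread. Shallow cells, cells with few or very many genes and, where needed, cells with a high spike-in or mitochondrial share had been removed. The deposited counts held 46517 genes and 92 ERCC spike-ins. No doublet caller was run here, since cells with very many genes had been removed by the authors as likely doublets.

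Counts were summed over cells of a cluster and strain (3 or more cells), and tested with edgeR 4.0.16 (R 4.3.3; TMM, filterByExpr with a minimum count of 10, quasi-likelihood test) in 1 fit of clusters 1 to 5 without a block, and in a separate fit against the mural sums. ERCC and genes per cell were tested by exact permutation (SciPy 1.17.1). On simulated data, 4-fold changes were recovered for 76%, 72%, 76%, 36% and 74% of 100 changed genes against clusters 2, 3, 4, 5 and mural cells (17355 genes run, 12575 for mural), 16-fold changes for 100% in each, with 11, 16, 11, 5 and 10 false calls. The simulated counts had the same spread for every gene and no strain effect, and only well-counted genes were changed. These shares thus do not carry over to genes with larger errors or low counts. A gene that was not called is not shown to be unchanged. DESeq2 1.42.0, another scaling, thinning to 50000 counts per cell (2 cells, none in cluster 1, were shallower), no filter, leaving out each strain and a strain block were alternatives. p-values measure the spread between strain sums. Same-strain deviations from group means correlated at 0.0357 to 0.143 and other pairs at up to 0.107, and each sum correlated best with its own strain, except that of the mural Cspg4dsRED cells (0.0736, against 0.107 with the cluster 1 sum of Acta2GFP). Strain also marks a shared plate by the cell names, so a fit with strain as a block was run as an alternative. Calls, fold changes and errors are from the fits without a block, which do not use this pairing, unless the block is named. A blocked value is printed where it ended a call or moved a count by over 1.5 times. Genes called only with the block are not listed.

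Symbols, coordinates and exons came from GENCODE M21 (GRCm38), which held 46005 of the genes. Shares of cells use 100 CPM, and differed by at most 11.4 percentage points from shares at 5 counts after thinning. The members and gene lists were chosen with earlier results of these data known. Genes named were the 7 markers and the study's own, those called higher in all 5 comparisons or lower in all 4 fibroblast comparisons (at most 20 and 15, ranked by their smallest change; same direction in every strain; any count in at least 30% of cells on the higher side), the top 3 by fold in each direction of a comparison by the same conditions, and examples from 32 lists.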

Additional observations from a re-analysis of the deposited data

Results flagged for a closer look

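For 74 gene levels and 4 cell measures, the highest or lowest of the 4 strains in cluster 1 was compared with the nearest of the others by Dixon's test at its 95% critical value, which chance passes in about 1 of 20 groups. Of these, 7 gene levels passed. Clu was at 4260 CPM in the 3 Cspg4dsRED cells and at 842 to 908 CPM in the other strains. Rgs5, Acta2 and Postn were highest in Acta2GFP, at 595, 753 and 3060 CPM, against at most 155.5, 283.7 and 1390 CPM elsewhere. Col4a1 was at 183.2 CPM in C57BL6 and at 24.1 to 49.4 CPM in the others. Cxcl1 was at 133.4 CPM in PdgfrbGFP and at 0 to 16.4 CPM in the others. For 6030408B16Rik the Cspg4dsRED value of 0 CPM stood apart from 0.991 to 1.18 CPM.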

How the results depend on the processing

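The share of tested genes that were called depended on the fit. DESeq2's Wald test called 5.65%, 4.92%, 3.34%, 3.06% and 7.55% against clusters 2, 3, 4, 5 and mural cells. Without a filter on low counts 0.405% were called against cluster 3, close to the main share but of 27687 genes and so more genes, and with cells thinned to 50000 counts 0.793% against cluster 3 and 1.14% against cluster 4. With strain as a block it was 0.882% against cluster 4 (1.51%, 0.467%, 0.57% and 2.07% against clusters 2, 3, 5 and mural cells). With only the clusters compared in the fit, 0.209% were called against cluster 3 and 0.275% against cluster 5. In the strains holding both clusters, an alternative chosen after seeing the data, it was 0.255% and 0.0952%, and with the block 0.23% and 0.161%. Leaving out 1 strain gave 0.311% to 0.859%, 0.0793% to 0.364%, 0.147% to 0.406%, 0.0906% to 0.519% and 0.919% to 1.96%. The cause of these shifts was not tested, but the fits with fewer strains or clusters hold fewer samples.

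Of the calls over 74 named genes, 96.2% were kept with the strain block, 98.1% with DESeq2 size factors, 99.1% without a filter, 99.1% with thinning and all that DESeq2's Wald test could fit. With only the clusters compared, 67.8% were kept, and in the strains holding both 61.6% (27 of 77 with the block against clusters 3 and 5). Leaving out C57BL6, Acta2GFP, PdgfrbGFP or Cspg4dsRED kept 43.7%, 65.7%, 72.8% and 83.1%. No call changed sign in these fits. The spike-in difference turned to 0.148 percentage points (exact permutation p = 0.771) with means over cells, and ran from -0.158 to 0.0357 without 1 strain. The genes detected differed by 131.2 to 360.2 without 1 strain, by 159.9 with all counts of each cell and by 442 with means over cells. Depth limits the Cspg4dsRED values most, since that sum holds 810367 counts of 3 cells.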
